A study of Mus musculus with 2 samples.

Results

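Among the fibroblasts of mouse knee synovium, the cells described here were those with transcripts of Ccl19, a chemokine, and without the transcripts that mark the other main fibroblast kinds of these libraries. They numbered 1050 of 10946 barcodes that passed the filters, 223 of 3871 from the MMS library and 827 of 7075 from the control library. The deposited lists held 14096 barcodes in all, 5286 of MMS and 8810 of control. The filters asked for 1000 or more unique molecular identifiers (UMIs, each standing for one captured transcript), 500 or more genes and no more than 10% of UMIs from mitochondrial genes. A member had at least 0.5% of its UMIs on the collagen genes Col1a1, Col1a2 and Col3a1, under 1% on the lubricin gene Prg4, and at most 1 UMI of the leukocyte and endothelial genes Ptprc, Pecam1 and Cdh5 together. It also had at least 2 UMIs of Ccl19, none of Sult1e1, at most 2 of Dpp4 and Pi16 together and at most 1 of Gdf10. These 12 genes chose the cells, so their levels are a description here and not a result.

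The MMS library came from wild-type mice of the MMS model, carrying the label D14, and the control library from wild-type control mice; the labels do not spell MMS out. Each library was made from the pooled synovium of 20 knees, minced, digested with Liberase and DNase, strained and run on the 10x Genomics 3′ v3.1 system. With 1 library per group there was no replicate and no test, and every interval below is a 95% interval that covers counting error only. Both libraries carry a cell type tag of goblet cells in their labels, which are mucus-secreting epithelial cells and not the collagen-rich cells selected here.

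Sublining fibroblasts fill the connective tissue under the thin lining that faces the joint space. CCL19 draws T cells and mature dendritic cells that carry its receptor CCR7, and in lymph nodes it is made by the fibroblastic reticular cells. C4b encodes complement component C4, which is cleaved early in the classical and lectin pathways and helps build the enzyme that cleaves C3. Fibroblasts are among the cells outside the liver that make complement proteins.

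The members held 5203136 UMIs in MMS and 12250832 in control. The median member had 22277 UMIs and 4972 genes in MMS, and 14011 UMIs and 3704 genes in control. The median mitochondrial share was 3.68% in MMS and 3.20% in control members. The libraries shared 6 barcode sequences, none of them among the members, and a doublet caller marked 1 of 223 MMS and 4 of 827 control members. Haemoglobin UMIs, which come from red blood cells, were seen in 27.4% of MMS and 6.77% of control members. At least 10 UMIs of the tendon, cartilage and matrix genes Tnmd, Acan and Spp1 together were seen in 36.8% of MMS and 8.95% of control members. The part of depth, of blood carry-over and of such cells in the differences below was not tested, and the values without these barcodes are given where they move a result.

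The share of these cells among fibroblasts was lower in MMS than in control. All barcodes that met the collagen and the Ptprc, Pecam1 and Cdh5 conditions formed the fibroblast gate. Members were 14.79% (13.03 to 16.68) of 1508 gate barcodes in MMS and 28.0% (26.38 to 29.65) of 2954 in control, a difference of -13.21 points. Of all kept barcodes they were 5.76% (5.05 to 6.54) in MMS and 11.69% (10.95 to 12.46) in control. The other side of the rule moved the opposite way: barcodes that met every other condition and had 0 Ccl19 UMIs were 38.1% of the gate in MMS and 9.11% in control. These Ccl19-negative fibroblasts were of another make-up in each library, since 55.0% of them in MMS and 1.86% in control had at least 10 UMIs of Tnmd, Acan and Spp1. With such barcodes taken out of the gate total only, the members were 22.69% in MMS and 29.4% in control, a difference of -6.745 points. All 223 MMS and 827 control members were still counted there, although 82 and 74 of them were such barcodes themselves. The smaller difference thus rests on a removal from the total alone, and the share with such members also removed was not computed. Prg4 fibroblasts (at least 1% Prg4) were 25.3% of the gate in MMS and 3.39% in control, and a share of 1 kind depends on the size of the others.

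**Figure D1:**
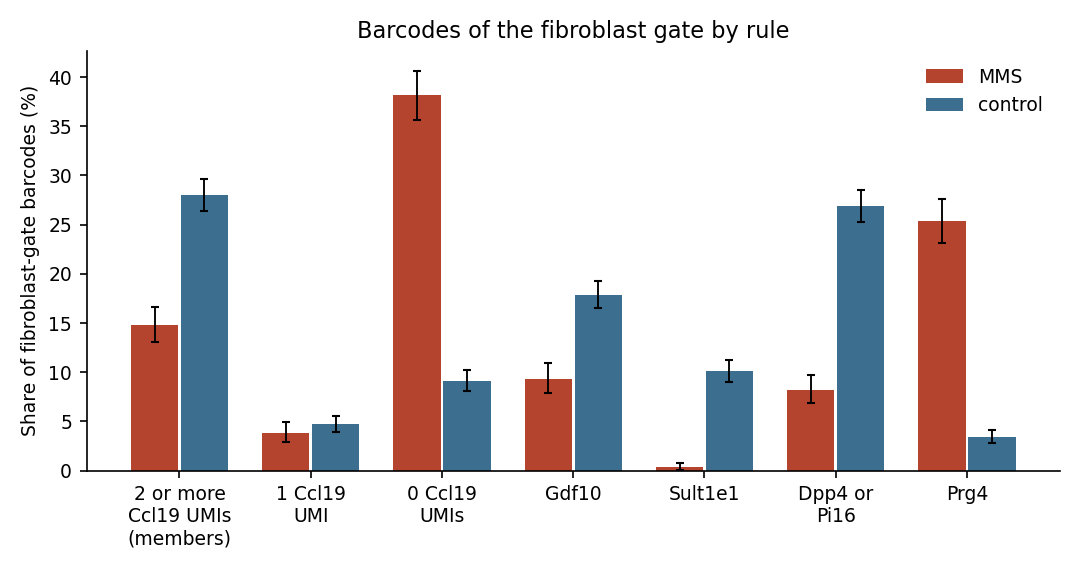
Bars give the share (%) of fibroblast-gate barcodes in each class, MMS left of control, with exact Clopper-Pearson 95% intervals as error bars. Members were 14.79% of the MMS and 28.0% of the control gate, while barcodes with 0 Ccl19 UMIs were 38.1% and 9.11%; the 7 classes do not overlap and add up to the whole gate.

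Ccl19 itself varied widely among the members. Its level was 516.8 counts per 1000000 UMIs (CPM; 497.4 to 536.7) over MMS members and 669.9 CPM (655.5 to 684.6) over control members, with a median of 7 and 6 UMIs per cell and a highest count of 134 and 104. The tenth of the members with most Ccl19 held 41.0% of its UMIs in MMS and 37.5% in control. Just outside the threshold, 58 MMS and 139 control barcodes held exactly 1 Ccl19 UMI, which put them at 46.25 and 83.85 CPM. Just inside it, 30 MMS and 114 control barcodes held exactly 2. Among the neighbouring kinds, Ccl19 stood at 261.0 CPM in MMS and 453.7 CPM in control Gdf10 fibroblasts (at least 2 Gdf10 UMIs). It stood at 249.0 CPM in MMS and 195.7 CPM in control Dpp4 or Pi16 fibroblasts, so Ccl19 is not a gene of the members alone. As background, 3.39% of 886 MMS and 4.28% of 1214 control barcodes with 2 or more Ptprc UMIs held a Ccl19 UMI. Their median depth was 15354 and 14091 UMIs. Of these Ptprc barcodes, 1.92% in MMS and 2.31% in control held 2 or more Ccl19 UMIs, and the source of these UMIs was not tested. Endothelial barcodes were those with 2 or more UMIs of Pecam1 and Cdh5 together and none of Ptprc. Of these, 2.15% of 837 in MMS and 3.51% of 2081 in control held a Ccl19 UMI, at a median depth of 8411 and 3834 UMIs. The files have 2 rows named Ccl19, of which only the one on chromosome 4 (42754525 to 42756577, minus strand, GRCm38) had UMIs. Ccr7, the receptor for CCL19, had no UMI in the members of either library, and 2.14% of the Ptprc barcodes in MMS and 0.988% in control held one.

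The label of these cells was checked against its other markers. C4b, on chromosome 17 (34728380 to 34743882, minus strand), stood at 1700.3 CPM in MMS and 3161.3 CPM in control members, against 175.5 and 1006.3 CPM in Ccl19-negative fibroblasts of the same libraries. A C4b UMI was seen in 98.2% of MMS and 97.5% of control members, while 40.9% of MMS and 38.1% of control barcodes with Ptprc had one at a depth nearer that of the members, and 10.6% and 11.6% of endothelial barcodes at their lower depth. In the barcodes with Ptprc, C4b stood at 217.9 CPM in MMS and 197.2 CPM in control. Its near-identical neighbour C4a had 6 UMIs in MMS and 12 in control members, and reads that fit both genes may have been dropped or assigned to either. Serpina3n, which encodes a secreted inhibitor of serine proteases, stood at 459.5 CPM in MMS and 573.2 CPM in control members, against 69.9 and 114.5 CPM in Ccl19-negative fibroblasts. Apod, which encodes the lipid carrier apolipoprotein D, stood at 1592.7 CPM in MMS and 1161.3 CPM in control members, against 154.1 and 452.8 CPM. These 3 markers were past 2-fold higher in members than in Ccl19-negative fibroblasts of both libraries, as were 2.62% of 12839 genes.

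Myoc, which encodes the secreted protein myocilin, separated the members less well. It stood at 192.2 CPM in MMS and 981.2 CPM in control members, against 16.2 and 608.8 CPM in Ccl19-negative fibroblasts. The log2 ratio of members over Ccl19-negative fibroblasts was 3.57 in MMS and 0.69 in control, which is under 2-fold. Gdf10 fibroblasts held more Myoc than the members in control, at 1472.5 CPM, and a like level in MMS, at 191.9 CPM. The sublining marker Thy1 stood at 95.5 CPM in MMS and 68.7 CPM in control members, against 84.3 and 176.0 CPM in Ccl19-negative fibroblasts. Cd34, another sublining marker, stood at 187.0 CPM in MMS and 542.2 CPM in control members, against 94.96 and 663.7 CPM. So Thy1 and Cd34 were at a lower level in control members than in control Ccl19-negative fibroblasts, while C4b, Serpina3n and Apod were higher in the members of both libraries. The nearest fibroblast kinds were not below the members throughout: in MMS, Serpina3n stood at 658.8 CPM in Dpp4 or Pi16 and 565.3 CPM in Gdf10 fibroblasts, and Apod at 1657.1 CPM in Dpp4 or Pi16 fibroblasts. C4b was higher in members than in both of these kinds in each library, at 1441.1 CPM in MMS and 2523.6 CPM in control Gdf10 fibroblasts.

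**Figure D2:**
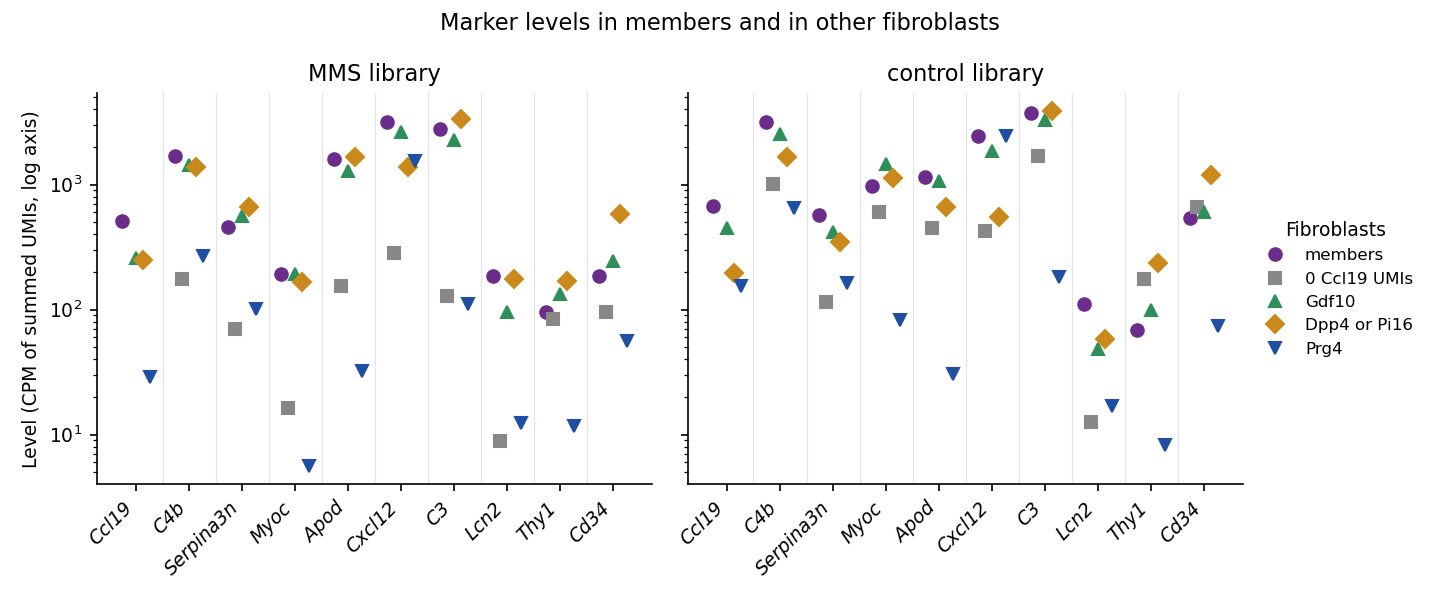
Points give the level (CPM of summed UMIs, log axis) of label markers and related genes in members and in 4 other fibroblast classes, MMS in the left and control in the right panel; Ccl19 at 0 by the rule is not drawn. C4b, Serpina3n, Apod, Cxcl12 and Lcn2 sat higher in members than in fibroblasts with 0 Ccl19 UMIs in both panels.

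Which genes accompanied Ccl19 was then asked within each library. Of 12839 genes with enough UMIs in both libraries, 336 were at least 2-fold higher in members than in Ccl19-negative fibroblasts in both (2.62%), and 357 were at least 2-fold lower in both (2.78%). Within MMS alone, 8.25% of genes were at least 2-fold higher and 8.71% lower, and within control alone 6.93% and 7.03%. The cells were chosen by Ccl19, so these counts describe the choice. With every cell thinned to 5000 UMIs, which leaves fewer genes with enough UMIs, 104 were higher in both, 79 of them among the 336. The rule was applied anew to the thinned cells, which left 167 MMS and 685 control members. Below, thinned cells means this new choice, unless the same members are said to be thinned. Cxcl12, the ligand of CXCR4 that holds haematopoietic cells in their niches, stood at 3156.2 CPM in MMS and 2436.0 CPM in control members, against 285.7 and 427.7 CPM. The log2 ratios over Ccl19-negative fibroblasts were 3.47 in MMS and 2.51 in control. Prg4 fibroblasts of control held as much Cxcl12 as the members, at 2459.2 CPM, while those of MMS stood at 1544.0 CPM. Gdf10 fibroblasts lay below the members but far above Ccl19-negative fibroblasts, at 2664.2 CPM in MMS and 1871.2 CPM in control. Cxcl14, another chemokine, stood at 1991.7 and 1475.7 CPM in members, against 104.7 and 263.6 CPM, with log2 ratios of 4.25 and 2.49. Gdf10 fibroblasts held more Cxcl14 than the members, at 2706.5 CPM in MMS and 1533.8 CPM in control.

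Lcn2, which encodes an iron-siderophore binding protein of the acute phase, stood at 186.2 CPM in MMS and 110.4 CPM in control members, against 8.95 and 12.6 CPM in Ccl19-negative fibroblasts (log2 ratios 4.38 and 3.14). Neutrophils make Lcn2 too, and it stood at 3794.3 CPM in the MMS and 2.97 CPM in the control Ptprc barcodes. The neutrophil markers summed to 40.4 CPM in MMS and 1.47 CPM in control members, and Ly6g had no UMI in either. Of the 9 markers, 5 had no UMI in control members. The 5 with enough UMIs to be measured were all past 2-fold higher in MMS, beside 9.31% of all measured genes. With so few control UMIs, a marker came to be measured mostly through its MMS UMIs, so this count adds little to the sums. The part of neutrophil RNA in the MMS level of Lcn2 was not tested. Srgn, the core protein of the proteoglycan serglycin, stood at 639.6 CPM in MMS and 178.5 CPM in control members, against 82.0 and 27.6 CPM (log2 ratios 2.96 and 2.69). Over all kept barcodes Srgn stood at 541.6 CPM in MMS and 458.0 CPM in control, the latter above the control members. The part of free RNA in its level was not tested. Ccl7, a chemokine for monocytes, stood at 204.5 CPM in MMS and 198.4 CPM in control members, against 36.9 and 33.3 CPM (log2 ratios 2.47 and 2.58). Sult1e1 fibroblasts of control held more Ccl7, at 324.8 CPM.

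Other named genes on this side included CR974586.4 (log2 ratios 9.38 in MMS and 5.81 in control), Serpina3m (3.78 and 3.51), the steroid sulfate transporter gene Slc10a6 (2.999 and 3.05), the cannabinoid receptor gene Cnr1 (2.51 and 3.32), the oxysterol hydroxylase gene Cyp7b1 (2.95 and 2.48), the adhesion gene Chl1 (2.48 and 3.56), Il6 (2.32 and 3.39) and Tmem176a (2.24 and 2.22), besides Serpina3n (2.72 and 2.32). CR974586.4 is a protein-coding model that GENCODE places on an unplaced scaffold beside copies of the chemokine genes Ccl27 and Ccl21b. Copies on such scaffolds can share reads with genes on the chromosomes, so its counts are uncertain, as are those of the closely related Serpina3 genes. Chl1 was higher in MMS Dpp4 or Pi16 fibroblasts (323.3 CPM) than in MMS members (204.7 CPM). Cnr1 was higher in Gdf10 fibroblasts of both libraries (13.2 and 10.6 CPM) than in members (5.96 and 9.39 CPM). In MMS, Dpp4 or Pi16 fibroblasts also held more Slc10a6 (17.9 against 12.3 CPM) and Serpina3m (14.0 against 9.61 CPM), though not in control. Il6 stood at 58.7 CPM in control Gdf10 fibroblasts, above the 52.7 CPM of control members. Cyp7b1, Tmem176a and CR974586.4 were higher in members than in both kinds. Genes that were lower in members included Fam180a (log2 ratios -6.55 and -4.37), Pthlh, which encodes parathyroid hormone-related protein (-5.24 and -5.01), the chloride channel gene Ano1 (-3.75 and -4.53), the phosphatase gene Ptpn22 (-3.80 and -7.21), Cobl (-3.05 and -3.69) and Tnfrsf11b, which encodes the decoy receptor osteoprotegerin (-3.69 and -8.63, the last from 1 UMI in control members). Inhba, a subunit of activin A, stood at 14.0 CPM in MMS and 9.14 CPM in control members, against 172.0 and 92.9 CPM. The annexin gene Anxa8 stood at 56.5 and 22.5 CPM in members, against 420.3 and 507.7 CPM.

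The levels were then followed over classes of Ccl19 UMIs in barcodes of the same gate. In MMS, Cxcl12 stood at 285.7 CPM with 0 Ccl19 UMIs, 1346.1 CPM with 1, 2518.8 CPM with 2, 2039.0 CPM with 3, 2905.1 CPM with 4 to 9 and 3853.4 CPM with 10 or more. In control, Cxcl12 stood at 427.7, 807.7, 1211.4, 1755.4, 1997.2 and 3466.9 CPM over the same classes. C4b changed mostly between 0 and 2 Ccl19 UMIs in MMS, with 175.5, 939.4, 1626.3, 1535.0, 1591.9 and 1877.9 CPM. The fibronectin gene Fn1 was highest without Ccl19 and took no steady course among the members: in MMS it stood at 7701.1, 6373.8, 3352.9, 3418.0, 4379.0 and 2652.8 CPM over these classes, and in control at 8534.2, 3564.5, 2749.3, 2070.2, 2207.2 and 2769.2 CPM. Across single members thinned to 5000 UMIs, the Spearman correlation with Ccl19 was 0.21 in MMS (217 cells) and 0.37 in control (798 cells) for Cxcl12, and 0.15 and 0.17 for C4b. For Apod it was 0.22 in MMS and -0.0028 in control. Cells of 1 library share its RNA background, and correlations in such sparse counts describe these cells only.

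Genes of lymphoid stroma, the fibroblast network of lymph nodes, were examined as a list of 24. Of 19 measured genes, 7 were at least 2-fold higher in members than in Ccl19-negative fibroblasts of both libraries: Cxcl12, Cxcl13, Tnfsf13b, Tnfsf11, Il6, Icam1 and Vcam1. Ackr4, which encodes a scavenging receptor that takes up CCL19, and Tnfrsf11b were at least 2-fold lower. Over all genes, 2.62% were higher and 2.78% lower in both libraries. Among chemokines and cytokines, 11 of 19 measured genes were at least 2-fold higher in both libraries, a list that shares Cxcl12, Cxcl13 and Il6 with the first. Of 25 measured complement genes, C4b, C3, Cfb, Cfd and Masp1 were at least 2-fold higher and Cd59a, an inhibitor of the terminal complex, was lower. None of 24 activated or fibrotic fibroblast genes was higher, and Fn1, Spp1, Acta2, Tagln, Tnc and Ccn2 were at least 2-fold lower in members of both libraries. The Ccl19-negative cells of MMS carried most of these genes at high levels, such as Spp1 at 4845.7 CPM. The cells were picked by Ccl19 and these lists were made with earlier results known, so neither is independent evidence of the direction.

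Il6, the gene of the inflammatory cytokine interleukin-6, and Icam1, the gene of a leukocyte adhesion molecule, were both higher in members than in Ccl19-negative fibroblasts, and their promoters are shown for that reason. Il6 stood at 24.0 CPM in MMS and 52.7 CPM in control members, against 4.83 and 5.02 CPM. As background, Il6 stood at 35.3 CPM in MMS endothelial barcodes, above the MMS members, and at 31.3 CPM in control barcodes with Ptprc, below the control members. Icam1 stood at 184.7 CPM in MMS and 272.8 CPM in control members, against 23.4 and 64.6 CPM. Il6 lies on chromosome 5 (30013114 to 30019981, plus strand) and Icam1 on chromosome 9 (21015985 to 21028817, plus strand). The sequences below are the 250 bases before the RefSeq start of each gene (GRCm38.p6, 5′ to 3′, chr5:30012864-30013113 for Il6 and chr9:21015690-21015939 for Icam1). Capitals mark matches to the letters searched on both strands, where N is any base: GGGA and TTCC with any 2 bases between them, or GGAANTTCC, for NF-kB, TTGCNNAA for C/EBP, TTCNNNGAA for STAT and TGANTCA for AP-1.
Il6: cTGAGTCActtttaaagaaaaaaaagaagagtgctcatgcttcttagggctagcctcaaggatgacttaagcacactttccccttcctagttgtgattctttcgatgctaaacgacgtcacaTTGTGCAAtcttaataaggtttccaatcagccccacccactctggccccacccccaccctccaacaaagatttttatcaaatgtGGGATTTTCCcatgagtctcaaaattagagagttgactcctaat
Icam1: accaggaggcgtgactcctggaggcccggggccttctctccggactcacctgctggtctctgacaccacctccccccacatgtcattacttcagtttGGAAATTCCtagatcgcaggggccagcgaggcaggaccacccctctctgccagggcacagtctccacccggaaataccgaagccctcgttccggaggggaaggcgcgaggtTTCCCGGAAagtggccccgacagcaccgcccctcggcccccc
In Il6, the NF-kB letters lay 44 to 35 bases before the start, the C/EBP letters 128 to 121 and the AP-1 letters 249 to 243. In Icam1, the NF-kB letters lay 153 to 145 bases before the start and the STAT letters 42 to 34. Of 32851 RefSeq windows of this length, 1.21% held the longer and 0.813% the shorter NF-kB letters, 9.56% TTGCNNAA, 7.02% TTCNNNGAA and 6.75% TGANTCA. A match of letters describes the window and says nothing of binding in these cells.

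The next comparison asked how the members of the MMS library differed from those of the control library. Of 13443 measured genes (at least 10 UMIs over both sums, the 12 genes of the rule left out), 1251 were at least 2-fold higher in MMS members (9.31%) and 772 at least 2-fold lower (5.74%). The median log2 ratio over all of them was 0.14, and 62.6% lay above 0. Scaled so that this median is 0, the counts were 1027 higher and 951 lower, so the balance of the directions depends on the scaling. Past 2-fold is a size and not a test, and the genes called higher or lower below are past it unless values alone are given.

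The largest ratio of a gene with UMIs in both libraries was that of Mmp13, the collagenase that cleaves fibrillar collagen in cartilage and bone, on chromosome 9 (7272514 to 7283331, plus strand). It stood at 790.1 CPM in MMS members (4111 UMIs) and 1.22 CPM in control members (15 UMIs), a log2 ratio of 9.33 (8.61 to 10.17). Mmp13 was seen in 28.7% of MMS and 0.121% of control members, that is in 1 of 827 in control. As background, 4.40% of MMS and 2.22% of control barcodes with Ptprc, and 2.15% and 0.0481% of endothelial barcodes, held a UMI of it, so the share of control members lay below that of control barcodes with Ptprc. In Ccl19-negative fibroblasts Mmp13 stood at 387.3 CPM in MMS and 7.84 CPM in control (log2 ratio 5.63), and in Gdf10 fibroblasts at 432.1 and 41.4 CPM (log2 ratio 3.38). With the tendon or cartilage barcodes left out, no Mmp13 UMI remained in control members. The value of 11.03 in that setting is a bound, with the control sum set to 3 counts.

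Because Mmp13 gave this ratio, its promoter is shown: the 250 bases before the RefSeq start (chr9:7272264-7272513, plus strand, GRCm38.p6, 5′ to 3′). Capitals mark the AP-1 letters TGANTCA, found 35 to 29 bases before the start and in 6.75% of all 32851 windows; none of the other letters searched was in this window.
Mmp13: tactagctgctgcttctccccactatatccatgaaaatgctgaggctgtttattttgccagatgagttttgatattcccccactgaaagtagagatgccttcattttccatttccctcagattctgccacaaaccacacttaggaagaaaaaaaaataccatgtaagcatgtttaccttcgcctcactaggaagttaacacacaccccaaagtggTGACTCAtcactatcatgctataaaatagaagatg
The search shows only that these letters stand there.

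Other matrix genes were among the remaining large increases. Spp1, which encodes osteopontin, stood at 1320.7 CPM in MMS and 26.6 CPM in control members, a log2 ratio of 5.63 (5.47 to 5.80). Of its 326 UMIs in control members, 275 were in 1 barcode, the same one that held all 15 control Mmp13 UMIs. Spp1 was also high in Ccl19-negative fibroblasts of MMS. Its ratio in members was 3.18 with the tendon or cartilage barcodes, which Spp1 helped define, left out. It was 7.77 with members chosen anew from thinned cells. In the same members thinned, the mean was 6.63 Spp1 UMIs in MMS and 0.120 in control. Mmp11, which encodes stromelysin 3, stood at 208.9 CPM in MMS and 7.26 CPM in control members (log2 ratio 4.85). Megf6, a gene of EGF-like repeats, had 321 UMIs in MMS and none in control members, a difference of at least 252-fold when the control sum is set to 3 counts. The named genes also included Plekhg4 (88 UMIs in MMS and 1 in control members, log2 ratio 7.69, 5.18 to 13.02), the mitochondrial protein gene Chchd10 (133.2 and 1.47 CPM), the secreted C1qtnf3 (67.7 and 1.14 CPM), the fibrillin gene Fbn2 (49.6 and 1.06 CPM) and the integrin ligand gene Edil3 (110.1 and 3.18 CPM). Nt5dc2 stood at 168.4 CPM in MMS and 5.14 CPM in control members. Syt17 (30 and 2 UMIs) and Podnl1 (40 and 3 UMIs) rested on few control UMIs. Their log2 ratios were 5.14 (3.16 to 8.25) and 4.97 (3.32 to 7.31).

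**Figure D3:**
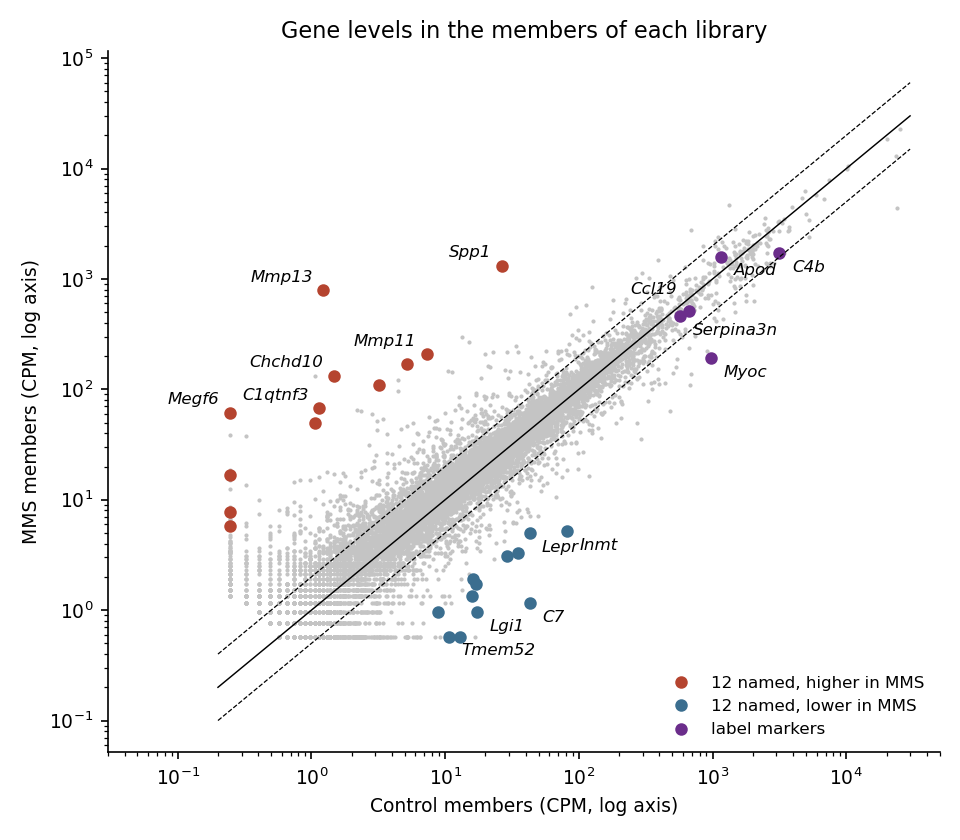
Each grey point is a measured gene, with its level (CPM, log axes) in control members on the x axis and in MMS members on the y axis; levels under 3 counts are drawn at 3 counts, the solid line marks equal levels and the dashed lines 2-fold. Mmp13 (790.1 against 1.22 CPM) and Spp1 (1320.7 against 26.6 CPM) lie far above the lines, C7 (1.15 against 42.9 CPM) far below them, and Myoc is the only label marker past the lower dashed line.

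Genes that were lower in MMS members included complement, receptor and enzyme genes. C7, which encodes a part of the membrane attack complex, on chromosome 15 (4988762 to 5063740, minus strand), stood at 1.15 CPM in MMS and 42.9 CPM in control members, a log2 ratio of -5.22 (-6.67 to -4.09). In Gdf10 fibroblasts C7 stood at 16.5 and 81.3 CPM (log2 ratio -2.30). Inmt, which encodes an amine methyltransferase, stood at 5.19 CPM in MMS and 82.0 CPM in control members (log2 ratio -3.98). Lepr, the leptin receptor, stood at 4.997 and 42.8 CPM (-3.10), and Cysltr1, a cysteinyl leukotriene receptor, at 3.27 and 34.9 CPM (-3.42). Tmem52 had no UMI in MMS and 131 in control members, at least 18.5-fold lower against the floor of 3 counts. Tmeff2 (-4.48), Lgi1 (-4.17), the cadherin gene Cdh4 (-3.55), Fbxo2 (-3.30), Efhd1 (-3.23), the homeobox gene Dlx5 (-3.20) and the interferon-induced Usp18 (-3.06) completed the named genes. With the rule applied to cells thinned to 5000 UMIs, the ratio of Usp18 was -0.66, which ends its call, and that of C7 was -2.21. In the same members thinned, the mean was 0.0184 C7 UMIs in MMS and 0.246 in control. Tmem52 stood at -1.19 with the rule applied to thinned cells. That value is a bound set by the floor of 3 counts over a smaller sum of UMIs, and not a measured ratio. All 4 measured markers of the Sult1e1 subset were lower, beside 5.74% of all genes, although members had no Sult1e1 UMI by the rule. Their median log2 ratio was -3.06 (-2.07 with thinned cells). Inmt and Lgi1, named above for their low ratios, are among these markers, so the list is not separate from the named genes.

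The label markers moved unequally between the libraries. C4b had a log2 ratio of MMS over control members of -0.89 (-0.93 to -0.86), which is under 2-fold. Myoc was lower past 2-fold, with a log2 ratio of -2.35 (-2.45 to -2.26). A Myoc UMI was seen in 31.4% of MMS and 66.9% of control members, and in 23.04% and 58.3% of those thinned to 5000 UMIs. As background, 1.58% of MMS and 5.601% of control barcodes with Ptprc, and 0.717% and 3.99% of endothelial barcodes, held a Myoc UMI. Apod had a log2 ratio of 0.46 (0.42 to 0.49), and Cxcl12 of 0.37 (0.35 to 0.40). With members chosen anew from thinned cells, the ratio of Apod was 1.10, past 2-fold. In the same members thinned, the mean was 10.4 Apod UMIs in MMS and 6.14 in control, under 2-fold. Serpina3n had -0.32 (-0.39 to -0.25) and turned to 0.08 with members chosen anew from cells thinned to 5000 UMIs. In the same members thinned, the mean was 2.46 Serpina3n UMIs in MMS and 2.64 in control, so the direction was kept. In Gdf10 fibroblasts the same ratios were -0.81 for C4b, -2.94 for Myoc, 0.26 for Apod and 0.43 for Serpina3n, and whether they differ from those of the members was not tested.

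Matrix-degrading proteases and their inhibitors shifted upwards. Of 21 measured genes, 11 were higher in MMS members and 1 was lower, beside 9.31% and 5.74% of all genes. The median log2 ratio was 1.03, beside 0.14 over all genes. Mmp3, or stromelysin 1, which also activates other pro-MMPs, stood at 843.5 CPM in MMS and 125.8 CPM in control members, a log2 ratio of 2.75 (2.66 to 2.83). The membrane-bound Mmp14 stood at 576.6 and 112.6 CPM (2.36), and Mmp2, which MMP14 activates, at 2009.0 and 854.4 CPM (1.23). Timp3, an inhibitor of these enzymes, was the gene that was lower, at 116.1 CPM in MMS and 362.8 CPM in control members (-1.64). In Ccl19-negative fibroblasts the log2 ratio of Mmp3 was 0.36, and that of Mmp14 was 2.50.

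Of 24 measured genes known from activated or fibrotic fibroblasts, 13 were higher in MMS members and none lower, with a median log2 ratio of 1.33. Over all genes, 9.31% were higher and 5.74% lower. Tnc, the matrix protein tenascin C, stood at 269.1 CPM in MMS and 15.02 CPM in control members (4.16). Cthrc1, a secreted protein of remodelling tissue, stood at 478.2 and 85.2 CPM (2.49), and the periostin gene Postn at 1133.2 and 299.2 CPM (1.92). Timp1 stood at 497.2 and 179.8 CPM (1.47). Fn1, by contrast, was at 3532.5 and 2469.0 CPM (0.52), under 2-fold. The median was 0.92 with the tendon or cartilage barcodes left out. Of 14 measured collagens outside the rule, 5 were higher and Col15a1 was lower, with a median of 0.69. Col12a1 stood at 210.6 CPM in MMS and 19.9 CPM in control members (3.40), and Col15a1 at 85.7 and 199.7 CPM (-1.22).

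Among proteoglycans and related matrix genes, 5 of 25 were higher and 5 lower, beside 9.31% and 5.74% of all genes. Lum, which encodes lumican of collagen fibrils, stood at 4664.9 CPM in MMS and 1334.4 CPM in control members (log2 ratio 1.81). Gsn, which encodes the actin-severing protein gelsolin, stood at 4409.8 CPM in MMS and 23897 CPM in control members (-2.44). It was among the most abundant transcripts of the control members. The carriers of insulin-like growth factors changed in opposite directions: Igfbp4 stood at 2792.4 and 692.0 CPM (2.01), and Igfbp6 at 328.5 and 1665.8 CPM (-2.34). Of 19 measured Wnt pathway genes, 4 were higher, among them Ccn5 at 1029.6 and 269.2 CPM, and 4 were lower, among them the inhibitor gene Dkk2 at 73.4 and 211.7 CPM.

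Complement genes did not move as a group: 4 of 26 measured genes were higher in MMS members, 2 were lower, and the median log2 ratio was 0.00035. Over all genes, 9.31% were higher and 5.74% lower. C2, which joins C4b in the C3-cleaving enzyme, stood at 17.9 CPM in MMS and 6.61 CPM in control members (1.43). Cfi, the protease that inactivates C3b and C4b, stood at 6.53 and 1.31 CPM (2.32), and Masp1, a protease of the lectin pathway, at 25.0 and 8.16 CPM (1.61). Cd59a was the other gene that was higher. C7 and C3ar1 were lower, but C3ar1 had only 4 UMIs in MMS and 24 in control members and an interval that includes 0. C3, the central component, stood at 2798.3 CPM in MMS and 3720.9 CPM in control members, a log2 ratio of -0.41 (-0.44 to -0.38). It turned to 0.23 with members chosen anew from cells thinned to 5000 UMIs. In the same members thinned, the mean was 17.5 C3 UMIs in MMS and 19.5 in control, so the direction was kept. Cfb, which helps cleave C3 in the alternative pathway, stood at 519.9 and 730.7 CPM (-0.49), and the C1 inhibitor gene Serping1 at 1733.0 and 2543.3 CPM (-0.55).

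Chemokines and cytokines moved in both directions. Of 21 measured genes, 7 were higher in MMS members and 2 lower, beside 9.31% and 5.74% of all genes, with a median of 0.37. Ccl8, which draws monocytes, stood at 297.9 CPM in MMS and 13.4 CPM in control members, a log2 ratio of 4.48 (4.24 to 4.72). The tenth of MMS members with most Ccl8 held 94.3% of its UMIs. Ccl8 also stood at 265.6 CPM in the MMS and 89.7 CPM in the control Ptprc barcodes, and the part of free RNA was not tested. The neutrophil chemokine gene Cxcl5 stood at 38.1 and 0.327 CPM (6.86, from 198 and 4 UMIs). Cxcl10, Ccl5, Il11, Il1b and Il1rl1 were the other genes that were higher, of which Ccl5 and Il1b are also known from leukocytes. The macrophage markers summed to 185.3 CPM in MMS and 164.3 CPM in control members. Il6 was lower in MMS members (24.0 against 52.7 CPM, log2 ratio -1.13) and so was the eosinophil chemokine gene Ccl11 (40.9 against 101.2 CPM, -1.31). With members chosen anew from thinned cells, the ratio of Il6 was -0.64, under 2-fold. In the same members thinned, the mean was 0.111 Il6 UMIs in MMS and 0.233 in control, past 2-fold. Cxcl1 stood at 330.6 CPM in MMS and 624.5 CPM in control members (-0.92). The ratio of Ccl2 was -0.10 (-0.27 to 0.07) and turned to 0.63 with members chosen anew from thinned cells. In the same members thinned, the mean was 0.424 Ccl2 UMIs in MMS and 0.363 in control. That of Ccl7 was a ratio of 0.04 (-0.06 to 0.15), which turned to -0.09 with the median ratio set to 0.

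Of the 19 measured lymphoid stroma genes, 2 were higher in MMS members, a share near the 9.31% of all genes, and 4 were lower, beside 5.74% of all genes. Tnfsf11, which encodes the osteoclast factor RANKL, stood at 32.1 CPM in MMS and 5.71 CPM in control members, a log2 ratio of 2.49 (2.08 to 2.91). With members thinned to 5000 UMIs, the share with a Tnfsf11 UMI was 11.1% in MMS and 2.13% in control. Tnfrsf11b, which encodes the decoy that binds RANKL, had 12 UMIs in MMS and 1 in control members. Csf1, the growth factor of macrophages, stood at 129.3 and 282.5 CPM (-1.13). Il7 and Dll1, also lower past 2-fold, had 4 and 3 UMIs in MMS members and intervals that include 0. Vcam1 stood at 133.4 and 69.2 CPM (0.95), and Icam1 at 184.7 and 272.8 CPM (-0.56).

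**Figure D4:**
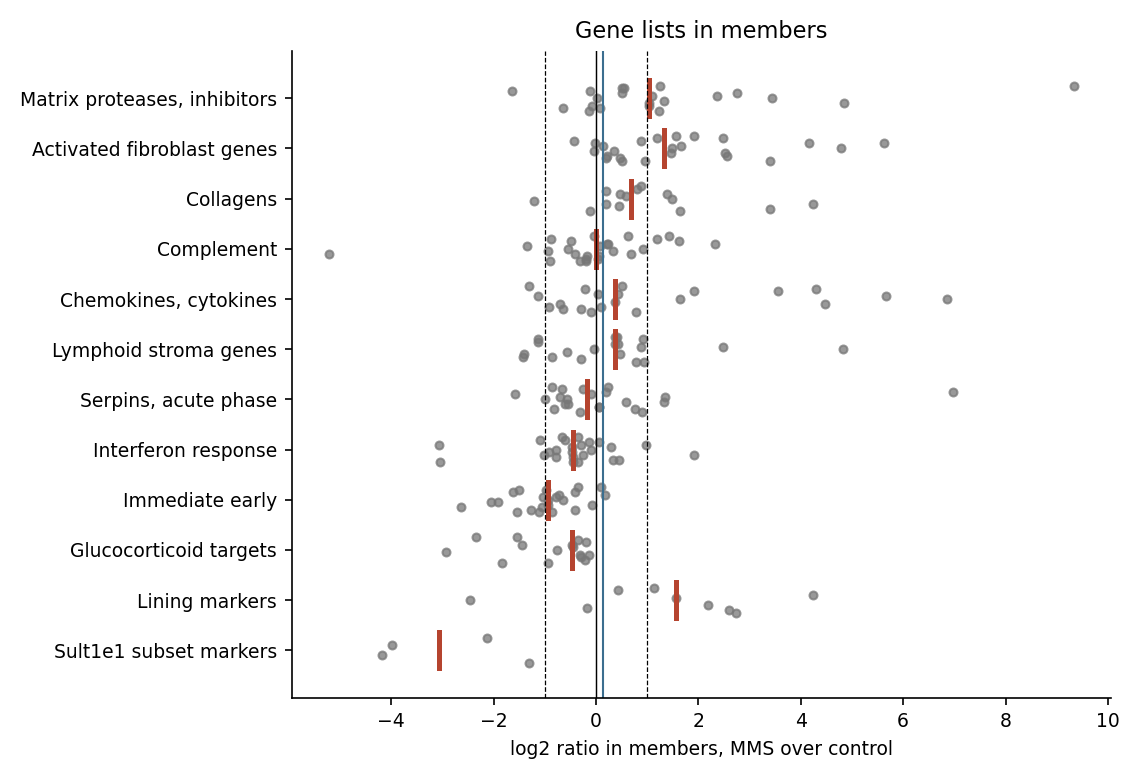
Each grey point is a measured gene of a list, placed by its log2 ratio of MMS over control members on the x axis; red bars are list medians, the blue line the median over all 13443 measured genes (0.14) and dashed lines 2-fold. Proteases, activated fibroblast genes and lining markers have medians of 1.03, 1.33 and 1.55 (the last 0.41 with thinned cells), complement lies at about 0, and immediate early genes and Sult1e1 subset markers at -0.94 and -3.06.

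Acute phase genes and serpins were higher for 3 of 22 measured genes and lower for 1, shares near the 9.31% and 5.74% of all genes. Saa3, a serum amyloid gene, stood at 132.6 CPM in MMS and 1.06 CPM in control members, a log2 ratio of 6.97 (6.18 to 7.88). It came from 7.62% of MMS members, of which the richest held 284 UMIs. Of MMS barcodes with Ptprc, 6.66% held a Saa3 UMI, at 132.9 CPM, so the members did not stand above the leukocytes of their library for Saa3. The haptoglobin gene Hp stood at 155.5 and 62.0 CPM (1.33). Serpina3m was lower (9.61 against 28.6 CPM, -1.57). Interferon response genes were higher for 1 of 25 and lower for 4, with a median of -0.44. Ifi27l2a, an interferon-induced gene, stood at 35.2 CPM in MMS and 292.3 CPM in control members (-3.06).

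Immediate early genes, which respond within minutes to growth factors and to tissue handling, were higher for none of 23 measured genes and lower for 10, with a median log2 ratio of -0.94. Over all genes, 9.31% were higher and 5.74% lower. Atf3 stood at 222.0 CPM in MMS and 914.2 CPM in control members (-2.04), Klf2 at 108.4 and 675.4 CPM (-2.64), and Myc at 44.97 and 138.7 CPM (-1.62). Dissociation of the tissue raises such genes, and differences in handling cannot be told apart from the group with 1 library each. Known targets of the glucocorticoid receptor were lower for 5 of 15 measured genes and higher for none, with a median of -0.47. Tsc22d3, which encodes the glucocorticoid-induced leucine zipper, stood at 76.9 CPM in MMS and 207.9 CPM in control members (-1.44), and Cdkn1a at 63.0 and 481.9 CPM (-2.93).

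The members of the MMS library were not uniform, and Mmp13 and Myoc were seldom seen in the same cells. Of the 223 MMS members, 55 held 2 or more Mmp13 UMIs and 58 held 2 or more Myoc UMIs, and 2 held both. Apod stood at 342.7 CPM in MMS members with Mmp13 and 4791.0 CPM in those with Myoc. C3 stood at 721.6 CPM in those with Mmp13 and 7202.5 CPM in those with Myoc, and Lcn2 at 15.9 and 715.0 CPM. C4b differed less, at 1003.2 and 2964.8 CPM. Lum went the other way, at 6547.5 CPM in members with Mmp13 and 2411.5 CPM in those with Myoc, as did Mmp14 (961.9 and 318.7 CPM) and Spp1 (2737.5 and 19.2 CPM). Ccl19, which chose both, stood at 506.7 and 593.5 CPM. The median depth was 25162 UMIs in members with Mmp13 and 17906 in those with Myoc.

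In control, the members with Myoc were the larger part, 479 of 827 (57.9%), against 58 of 223 (26.0%) in MMS. Control members with 2 or more Myoc UMIs had Apod at 1510.0 CPM, against 662.4 CPM in control members with none. C3 stood at 4110.7 CPM in control members with Myoc and 3190.9 CPM in those without, and Lcn2 at 143.6 and 60.7 CPM. Within members with Myoc, the levels in MMS were 4791.0 CPM for Apod, 7202.5 for C3 and 715.0 for Lcn2, against 1510.0, 4110.7 and 143.6 CPM in control. Within members without Myoc, Apod was close in the libraries (657.5 in MMS and 662.4 CPM in control) and C3 was lower in MMS (1462.6 against 3190.9 CPM). The sums over all members above join these kinds in different proportions. The splits were chosen after their values were seen and are a description.

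**Figure D5:**
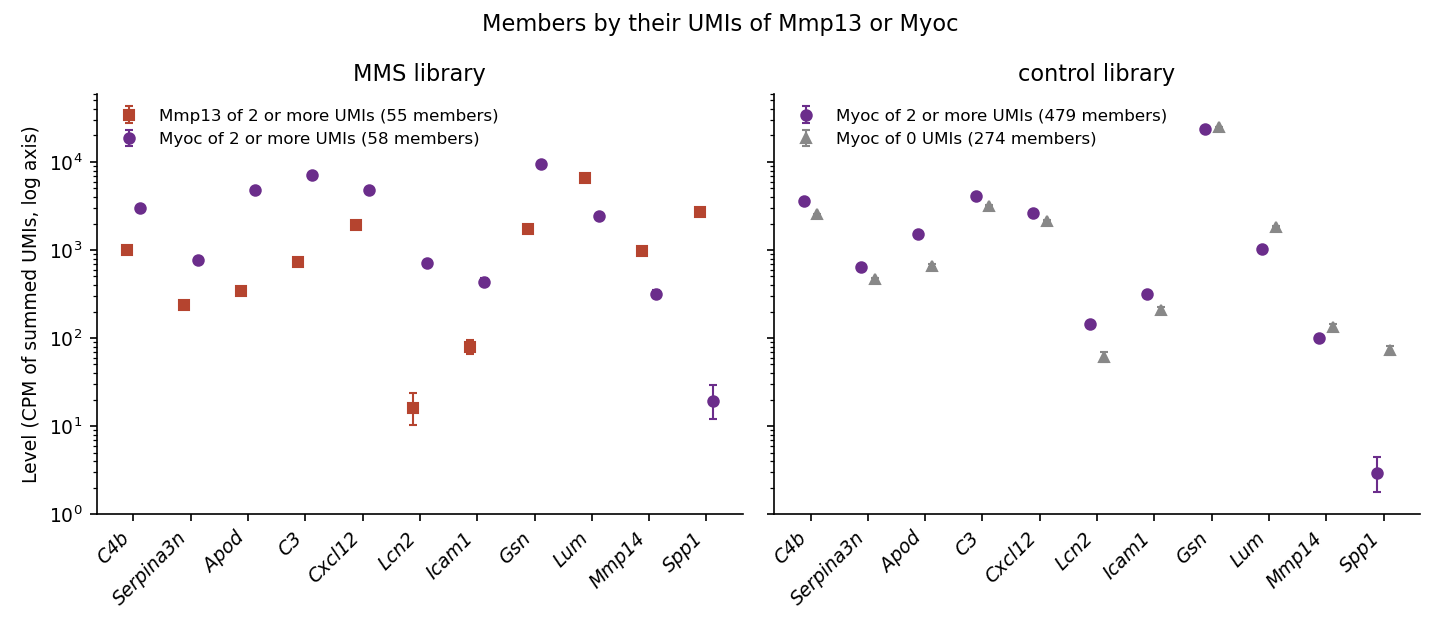
Points give the level (CPM of summed UMIs, log axis, with exact Poisson 95% intervals) of 11 genes in members split by their own UMIs; the left panel has MMS members with 2 or more Mmp13 UMIs (55) and with 2 or more Myoc UMIs (58), the right panel control members with 2 or more (479) and with 0 Myoc UMIs (274). In MMS, Apod, C3, Lcn2 and Gsn sat higher in members with Myoc and Lum, Mmp14 and Spp1 higher in those with Mmp13, while the control classes differed by less than 2-fold in C3, Lum and Gsn.

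A small set of members held Cxcl13, the chemokine of B cell follicles. A Cxcl13 UMI was seen in 9.87% of MMS and 10.2% of control members, and 16 MMS (7.17%) and 55 control members (6.65%) held 2 or more. Of barcodes with Ptprc, 1.13% in MMS and 1.89% in control held one. In MMS, the members with 2 or more Cxcl13 UMIs had C3 at 10821 CPM and Apod at 5363.1 CPM, against 2349.7 and 1375.0 CPM in the 201 members with none. Of these 16, 10 also held 2 or more Myoc UMIs. In control, the members with Cxcl13 had C3 at 5224.5 CPM and Apod at 1165.8 CPM, against 3594.7 and 1166.3 CPM in the 743 with none. Ccl21a, which encodes the other ligand of CCR7, had no UMI in MMS and 2 in control members.

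Markers of other cell types were summed as a rough guide to foreign RNA. Tnc of the tendon list and Acta2 of the mural list are also among the activated fibroblast genes above. The tendon and mural sums therefore cannot tell foreign RNA from the members' own. T, NK and B cell markers summed to 2.50 CPM in MMS and 1.14 CPM in control members. Endothelial markers summed to 65.2 and 57.2 CPM. Mural cell markers were higher for 5 of 9 measured genes, beside 9.31% of all genes, with sums of 186.6 CPM in MMS and 86.9 CPM in control members. Tendon markers were higher for 4 of 8, with sums of 808.5 and 393.4 CPM, although Tnmd itself stood at 126.3 and 163.3 CPM. Lining markers outside the rule were higher for 6 of 9, with a median log2 ratio of 1.55 that was 0.41 with thinned cells; the secreted protease gene Htra4 stood at 85.1 CPM in MMS and 12.7 CPM in control members, while the hyaluronan synthase gene Has1 was lower (49.6 against 272.3 CPM). Prg4, capped by the rule, stood at 1071.3 CPM in MMS and 508.0 CPM in control members, and the part of lining RNA in these values was not tested.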

How the data were processed

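The deposited files hold counts of UMIs per gene and barcode, unnormalised, for 1 MMS and 1 control library. Cell Ranger 5.0.0 is named by the matrix header and Cell Ranger 2.0.0 with the mm10 build per the submitters' processing notes; the annotation is not given in the sources used here. Of 32285 gene rows, those that share a symbol were summed, which left 32245 symbols, and no row lacked a name. Coordinates come from GENCODE M21 (GRCm38) and promoter sequences from RefSeq (GRCm38.p6).

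Barcodes were filtered and members chosen by the thresholds given in the report. The members and the 42 gene lists were chosen with earlier results of these data known. UMIs were summed over the barcodes of a class and divided by the class total (CPM). Log2 ratios have exact conditional binomial intervals, levels exact Poisson intervals and shares Clopper-Pearson intervals, all at 95%; they treat UMIs or barcodes as independent. Genes with at least 10 UMIs over both sums count as measured, and at least 2-fold is the call. There is no p-value, because each group is 1 library. The steps were tested on simulated data with 200 changed genes.

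Genes were named by rule. For MMS over control these were the 12 highest and 12 lowest ratios among genes with at least 30 UMIs in the higher library, seen in at least 10% of its members, at no less than 0.5 times their level over all kept barcodes there. For members over Ccl19-negative fibroblasts they were the 15 highest by the smaller and the 8 lowest by the larger ratio of the libraries. One gene that met this rule is not reported here. Label markers and examples from the lists were added; mitochondrial, ribosomal, haemoglobin, sex-linked and numbered gene models were left out. Doublets were called with scrublet in scanpy 1.11.5 at an expected rate of 0.06 and kept. Alternatives were a minimum of 2000 UMIs, at most 5% mitochondrial UMIs, doublets removed, Ccl19 cut-offs of 1 and 3 UMIs, thinning to 5000 UMIs, means of per-barcode CPM, median-ratio scaling, gene minimums of 1 and 30 UMIs and, added after seeing the data, the removal of barcodes with haemoglobin or with 10 or more UMIs of Tnmd, Acan and Spp1. Work was done in Python 3.11.15 with numpy 2.4.6, scipy 1.17.1, pandas 2.3.3 and matplotlib 3.10.9.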

Additional observations from a re-analysis of the deposited data

How the results depend on the processing

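With 1 library per group no replicate could be left out, and every interval covers counting error only. No paired analysis was possible because each group is 1 library and no value comes from a test. The members' share of the fibroblast gate was lower in MMS under every alternative run. It was 18.6% in MMS and 32.7% in control with at least 1 Ccl19 UMI, 12.8% and 24.1% with at least 3, and 11.9% and 24.0% after thinning to 5000 UMIs. With tendon or cartilage barcodes left out of the gate total but not of the members, the MMS share was 22.69% and the difference -6.745 points. Genes higher in MMS members numbered 3867 with a minimum of 1 UMI per gene and 821 with 30, and those lower numbered 507 with 30. With the median ratio set to 0 there were 1027 higher and 951 lower, which moved the balance of the directions. Over Ccl19-negative fibroblasts, 104 genes were higher in both libraries after thinning, and 605 were lower with a minimum of 1 UMI and 224 with 30. Other minimums change how many genes are compared. At a minimum of 1 UMI the floor matters too, because a sum without UMIs is set to 3 counts. A gene with no MMS UMI and 1 control UMI is then called higher in MMS members, so the 3867 overstates the increases.

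Of 599 log2 ratios of named genes under the alternatives, 433 lay within the interval of the reported value. Of the genes past 2-fold, Fam180a turned to 1.30 and Pthlh to 0.71 after thinning, on 3 MMS UMIs each at full depth. Members were chosen anew after thinning, so these values mix depth with a change of cells, and the cause was not tested. Of the genes under 2-fold, C3, Serpina3n, Ccl2, Ccl7, Cobl, Inhba, Slc10a6 and Tmem176a, among others, changed sign in at least 1 alternative. Of 476 list medians, 409 lay within their interval. The medians of the cartilage and tendon marker lists turned to -0.41 and -0.51 without the tendon or cartilage barcodes, which those markers helped to pick. In that setting Spp1 was at 3.18 and Mmp13 at 11.03, the latter a bound set by the floor of 3 counts in control. Depth limits genes of few UMIs, such as C3ar1, Il7 and Dll1.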

Other observations

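Genes of cholesterol and lipid transport and of the cell cycle were also examined in the members. Of 19 measured apolipoprotein and lipid genes, 3 were at least 2-fold higher in MMS members and 2 lower, with a median log2 ratio of 0.36. Over all genes, 9.31% were higher and 5.74% lower. Apoe, which encodes a carrier of cholesterol, stood at 1971.1 CPM in MMS and 1040.2 CPM in control members. Of 16 measured cell cycle genes, 5 were higher and none was lower, and the list summed to 182.8 CPM in MMS and 133.9 CPM in control members. Of 15 genes of MHC class I antigen presentation, none was past 2-fold in either direction, and the median was -0.34. Of 15 genes in common use as references, 1 was higher and none lower, with a median of 0.11, beside 0.14 over all measured genes.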
